A study of Mus musculus with 27 samples.

Results

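Immediate early genes are transcribed within minutes of a stimulus without new protein synthesis. Grouped here as immediate early and isolation stress genes, 10 members were followed across mouse liver cultures: Fos, Fosb, Jun, Junb, Jund, Egr1, Atf3, Ier2, Ier3 and Dusp1. They were taken by gene name from a table of 21850 genes, and all 10 were found and passed the filter on low counts in each of the 5 fits made. The study compared freshly isolated mouse hepatocytes with hepatocyte organoids (HepOrgs) and with periportal assembloids, which combine HepOrgs with cholangiocytes and portal mesenchymal cells. Bulk RNA sequencing of 27 libraries gave 9 conditions with 3 libraries each.

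The fresh hepatocytes were perfused from C57BL/6 wild-type livers with collagenase and had no time in culture. For fresh replicate 3 the genotype label read MDR2-het while the title gave wild type, and the library was kept in its labelled group. HepOrgs were at passage 2 and were kept for 1 week or 2 weeks in either of 2 media. HM-Wnt, the expansion medium, contained Wnt-conditioned medium, ROCK inhibitor, gastrin, EGF, R-spondin, FGF10, FGF7, nicotinamide, HGF, a GSK3 inhibitor and a TGFβ receptor inhibitor. MM kept the basal medium, the Wnt-conditioned medium and the ROCK inhibitor, without the other components. Assembloids were grown in MM for 1 week or 2.5 weeks from 10 HepOrgs and 1000 cholangiocytes, with 250 portal mesenchymal cells in the homeostatic design and 2500 in the fibrotic-like design. The cholangiocytes and mesenchymal cells carried fluorescent reporters (nuclear tdTomato, and GFP driven from Pdgfra, respectively), and no immune cells were added. All cultures were freed from their gel in a recovery solution before lysis, a step that the fresh hepatocytes did not share, so the handling and the culture state cannot be told apart in comparisons with fresh cells.

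Fos and Fosb are leucine zipper proteins that cannot pair with themselves and bind DNA with a Jun partner as the AP-1 factor. Jun, Junb and Jund are those partners, of which Jund is in general the most steadily expressed and Junb often restrains the activity of Jun. Atf3 is a related zipper protein of the ATF/CREB family that is induced by stress and mostly represses. Egr1 is a zinc finger factor induced by growth factors through ERK, Elk and serum response factor. Ier2 and Ier3 are small immediate early proteins, of which Ier3 also modulates survival and ERK signalling, and Dusp1 is the nuclear phosphatase that switches MAP kinases off. In liver, several of these genes are known to be induced by partial hepatectomy and by enzymatic dissociation.

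The promoters of several members are printed because one sequence element recurred in them. In the 300 bases upstream of the first base of the Ensembl canonical transcript of 9 members (all but Egr1, whose promoter was not examined), the complete cAMP response element TGACGTCA was present in 3, Jund, Ier2 and Dusp1, compared with 1.75% of 21770 protein-coding promoters of the same length. The shorter TGACG, which the complete element contains, was found on either strand in 6 of the 9 members and in 19.9% of all promoters. The AP-1 motif TGANTCA was in 0 of the 9 and in 7.38% of all promoters. A CArG box, the serum response factor motif, was in Fosb alone among the 9, at −266 to −257, and in 1.69% of all promoters. TATAA, searched on the gene's strand, was in 4 of the 9 (Fos, Junb, Jund and Ier3) and in 18.6% of all promoters. These matches describe letters in a window and do not show binding. Bases further upstream were not searched, so the absence of a motif holds for these 300 bases only. The sequences below run 5′ to 3′ on the gene's own strand in build GRCm39 and end at the base before that start, and capitals mark the complete cAMP response element, the CArG box or TATAA.
Fos, chr12:85520358-85520657, plus strand: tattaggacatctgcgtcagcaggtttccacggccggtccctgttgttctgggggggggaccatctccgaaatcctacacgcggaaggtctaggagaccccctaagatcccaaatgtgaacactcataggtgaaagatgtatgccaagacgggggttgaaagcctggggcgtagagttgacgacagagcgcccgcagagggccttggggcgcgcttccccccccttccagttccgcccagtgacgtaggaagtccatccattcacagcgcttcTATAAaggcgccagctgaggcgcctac
Fosb, chr7:19043977-19044276, minus strand: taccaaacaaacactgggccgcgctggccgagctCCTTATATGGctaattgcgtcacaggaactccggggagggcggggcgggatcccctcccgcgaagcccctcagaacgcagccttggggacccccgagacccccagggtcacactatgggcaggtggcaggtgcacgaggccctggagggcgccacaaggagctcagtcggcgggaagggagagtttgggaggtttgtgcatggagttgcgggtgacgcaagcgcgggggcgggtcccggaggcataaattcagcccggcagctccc
Jund, chr8:71151299-71151598, plus strand: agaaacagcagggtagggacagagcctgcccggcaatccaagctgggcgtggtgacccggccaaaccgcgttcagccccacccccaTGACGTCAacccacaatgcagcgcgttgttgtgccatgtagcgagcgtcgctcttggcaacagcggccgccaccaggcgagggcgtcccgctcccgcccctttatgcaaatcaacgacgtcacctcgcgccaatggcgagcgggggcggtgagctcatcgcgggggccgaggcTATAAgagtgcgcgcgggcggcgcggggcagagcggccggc
Ier2, chr8:85389484-85389783, minus strand: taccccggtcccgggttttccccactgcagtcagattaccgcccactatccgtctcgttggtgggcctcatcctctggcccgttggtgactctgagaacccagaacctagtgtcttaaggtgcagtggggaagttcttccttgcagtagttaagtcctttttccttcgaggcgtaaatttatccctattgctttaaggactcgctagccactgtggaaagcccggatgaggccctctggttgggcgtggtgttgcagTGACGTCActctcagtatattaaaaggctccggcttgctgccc
Dusp1, chr17:26727494-26727793, minus strand: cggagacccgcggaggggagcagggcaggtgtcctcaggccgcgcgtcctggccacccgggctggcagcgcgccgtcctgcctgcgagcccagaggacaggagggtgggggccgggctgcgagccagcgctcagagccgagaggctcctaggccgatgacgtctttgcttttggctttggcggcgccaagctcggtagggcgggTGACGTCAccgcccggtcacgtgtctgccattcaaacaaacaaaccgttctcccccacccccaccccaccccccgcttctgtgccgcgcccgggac
The cAMP response element lay at −214 to −207 in Jund, at −43 to −36 in Ier2 and at −96 to −89 in Dusp1, counted from −1 at the last base printed. The Fos promoter held no complete element, but carried TGACG at −60 to −56 and TATAA at −27 to −23.

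Depth was between 30289364 and 65348596 counts per library, so that members other than Fosb were well above the counting floor in nearly all libraries. The labels did not say whether libraries with different replicate numbers came from different mice or cultures, and p-values therefore measure the spread between these libraries. Some facts about the samples touch the results. Fresh replicate 1 stood apart from the other 2 fresh libraries in these genes, with the members summing to 5505 CPM against 1070 and 1283. CPM are counts per 1000000 counts of the library after scaling the library size with edgeR's TMM factors. Homeostatic replicate 2 and fibrotic-like replicate 3 at 1 week held little hepatocyte RNA, with 8 hepatocyte markers summing to 996 and 1605 CPM compared with 6804 to 27940 CPM in the other 10 assembloid libraries, and homeostatic replicate 2 had 8465 genes detected where the other 26 libraries had 14016 to 16018. Markers of other liver cells differed between fresh and cultured cells. In fresh hepatocytes, 8 endothelial markers summed to 42.1 to 192.8 CPM and 10 immune markers to 49.6 to 495.1 CPM, whereas in HepOrgs the endothelial sum was at most 2.35 CPM and the Kupffer cell gene Clec4f was counted 0 times in every cultured group. The immune sum in HepOrgs was 7.78 to 72.0 CPM, except in MM replicate 3 at 2 weeks, where it was 758.7 CPM, above every fresh library and mostly the lysozyme gene Lyz2 (695.7 CPM). The 8 hepatocyte markers summed to 73910 to 96930 CPM in fresh cells and to 12360 to 45230 CPM in HepOrgs, with Alb at 4041 CPM or more in each of these libraries, and 5 to 8 of the 8 were called lower in the 4 HepOrg groups. The 6 cholangiocyte markers summed to 11.8 to 138.8 CPM in fresh cells and to 3486 to 14970 CPM in HepOrgs, and 2 to 4 of the 5 tested were called higher there. Most of that sum was Spp1, at 3426 CPM or more in every HepOrg library, while Krt19, Krt7 and Epcam did not exceed 36.0 CPM in them and Cftr was at 0 counts in fresh cells. The part of these markers in the members' levels was not tested. In bulk RNA, fewer cells of a type and less RNA per cell cannot be told apart.

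**Figure D1:**
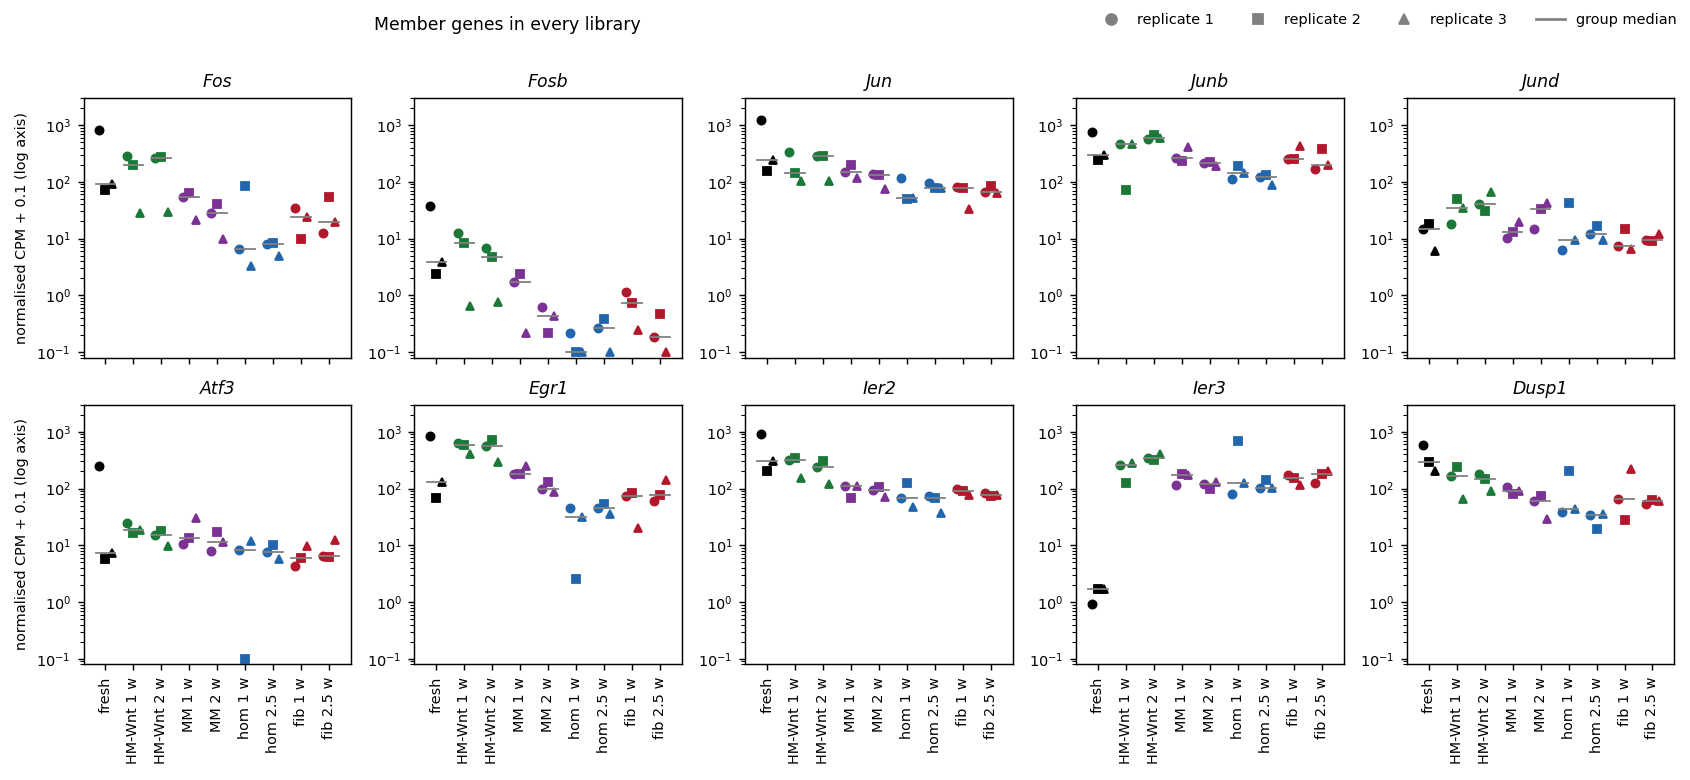
Normalised CPM + 0.1 (log axis) of the 10 members in all 27 libraries, grouped by condition, with 1 point per library and a line at the group median; hom is homeostatic, fib fibrotic-like and w weeks in culture. Fresh replicate 1 lies above both other fresh libraries for 8 members, and Ier3 runs from 0.842 to 1.62 CPM in fresh cells and at 80.8 CPM or more in every culture.

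Levels are given as CPM scaled with edgeR's TMM factors over the 27 libraries, and are compared between genes only after division by the length of the canonical transcript in kilobases (kb). On this scale Ier2, Junb and Dusp1 were the most abundant members in fresh hepatocytes, with medians of 201, 166 and 150 CPM per kb. Jun had a median of 74.6, Fos of 43.6 and Egr1 of 28.5 CPM per kb there. The lowest were Jund at 8.82, Atf3 at 3.69, Ier3 at 1.39 and Fosb at 0.989 CPM per kb. In HM-Wnt HepOrgs at 2 weeks the order differed, with Junb at 328 and Ier3 at 297 CPM per kb ahead of Ier2 at 156, while Fos and Egr1 both had a median of 125 CPM per kb. Fosb, at 1.25 CPM per kb, was again the lowest member. Fos therefore exceeded its paralogue Fosb in transcript level in every condition by these medians. These levels carry a limit, since the counts may include intronic reads or reads of overlapping genes. The deposited length was 56539 bases for Dusp1 and 47744 for Atf3, against canonical transcripts of 1990 and 1984 bases. It was also longer than the transcript for Junb (3868 against 1809 bases), Fos (3384 against 2114) and Fosb (7356 against 3782). The places of these members in these orders are therefore uncertain, with the largest gaps in length for Dusp1 and Atf3. For Ier2 and Jun the deposited length equalled the transcript, at 1524 and 3189 bases.

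Ordered by group median, HM-Wnt HepOrgs at 1 or 2 weeks ranked highest of the 9 conditions for all members except Dusp1, which was highest in fresh hepatocytes. An assembloid condition ranked lowest for all members except Ier3, which was lowest in fresh hepatocytes. Most neighbours in these orders could not be separated: of 80 pairs of adjacent conditions, the ranges of the 3 libraries overlapped in 69. Among the 11 that did not overlap were the steps from HM-Wnt HepOrgs at 2 weeks down to MM HepOrgs at 1 week for Egr1 (medians 560 and 183 CPM) and Ier2 (238 and 110 CPM). For Ier3, the step from homeostatic assembloids at 2.5 weeks (median 101 CPM) down to fresh hepatocytes (1.58 CPM) was also without overlap.

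The comparison of HepOrgs with fresh hepatocytes addresses how far organoid culture departs from the cells it began with. Ier3 was higher in HepOrgs of both media and both times, and Dusp1 was lower in all 4. Jun and Ier2 fell in MM HepOrgs at both times, Fos, Fosb and Atf3 fell in MM at 2 weeks, and Jund rose in HM-Wnt at both times. Of these calls, only those of Ier3, of Ier2 and Dusp1 in MM and of Jund in HM-Wnt at 2 weeks held without fresh replicate 1. The log2 fold change of Atf3 turned positive without it. The 4 comparisons share the 3 fresh libraries, and their results are not independent of each other.

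Among all 13405 genes tested with edgeR's quasi-likelihood test at a Benjamini-Hochberg adjusted p under 0.05, 24.9% were higher and 24.8% lower in HM-Wnt HepOrgs at 1 week, and 26.1% and 25.7% at 2 weeks. In MM HepOrgs these shares were 21.5% higher and 21.3% lower at 1 week, and 19.7% and 20.0% at 2 weeks. Against that background, 2 of the 10 members were higher and 1 lower in HM-Wnt at either time. The higher count is near the share of all genes, and the lower count is below it. In MM, 1 member was higher and 3 were lower at 1 week, and 1 was higher and 6 were lower at 2 weeks. The members' median log2 fold change was −0.90 and −0.97 in HM-Wnt at 1 and 2 weeks, where the medians over all genes were 0.022 and 0.032. In MM it was −1.92 and −2.31, with medians over all genes of 0.004 and −0.009.

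Of the Fos family, Fos was measured at 830, 72.6 and 92.2 CPM in fresh replicates 1 to 3, and at 27.9, 40.8 and 9.57 CPM in MM HepOrgs at 2 weeks. Every MM library at 2 weeks lay below every fresh library, with a log2 fold change of −3.66 ± 1.13 (SE, n = 3 and 3, adjusted p = 0.0201, edgeR). In HM-Wnt, by contrast, Fos ran from 27.9 to 288 CPM at 1 week and from 29.5 to 269 CPM at 2 weeks, ranges that enclosed both lower fresh libraries. At 1 week in MM it was 54.8, 64.1 and 21.4 CPM, all below the fresh libraries, and missed the threshold (log2 fold change −2.82, adjusted p = 0.0518, edgeR). Fosb was counted 1373, 53 and 123 times in the fresh libraries, and 20, 5 and 12 times in MM HepOrgs at 2 weeks. It was the least abundant member, and it fell there too (adjusted p = 0.0108, edgeR).

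Of the Jun family, Jun was measured at 1250, 157 and 238 CPM in fresh cells, at 148, 197 and 117 CPM in MM HepOrgs at 1 week and at 139, 134 and 73.5 CPM at 2 weeks. It fell by 1.83 on the log2 scale at 1 week (SE 0.69, adjusted p = 0.0462, edgeR), although 1 MM library lay above the lowest fresh library. At 2 weeks the groups did not overlap and Jun fell by 2.24 (SE 0.70, adjusted p = 0.0206, edgeR). Junb was measured at 762, 244 and 300 CPM in fresh cells and was not called in any HepOrg group. It reached 576, 675 and 593 CPM in HM-Wnt at 2 weeks, within the fresh range. Jund went from 14.7, 17.8 and 5.87 CPM in fresh cells to 39.9, 30.0 and 66.7 CPM in HM-Wnt at 2 weeks, where Jun was not called. These groups did not overlap, and Jund rose by 1.81 ± 0.51 at 2 weeks (adjusted p = 0.00907) and by 1.38 ± 0.50 at 1 week (adjusted p = 0.0356, edgeR, groups overlapping).

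Atf3 varied more than any other member between the fresh libraries, at 249, 5.63 and 7.32 CPM. In the 12 HepOrg libraries it lay between 7.76 and 30.6 CPM, above both lower fresh libraries and far below the highest. The fit gave a fall of 2.86 on the log2 scale in MM HepOrgs at 2 weeks (SE 1.06, adjusted p = 0.0460, edgeR), and Atf3 was not called in the other 3 HepOrg groups. DESeq2 gave no adjusted p for Atf3 in any HepOrg group against fresh cells. Egr1 had the same arrangement, at 858, 67.0 and 128 CPM in fresh cells against 625, 577 and 407 CPM in HM-Wnt at 1 week. All 6 HM-Wnt libraries lay between 291 and 702 CPM, above both lower fresh libraries and below replicate 1, and the difference was not called (log2 fold change 0.60 at 1 week, adjusted p = 0.470, edgeR).

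Ier2 was measured at 911, 204 and 307 CPM in fresh cells and at 110, 68.5 and 112 CPM in MM HepOrgs at 1 week. It fell in MM at both times without overlap, with log2 fold changes of −2.30 ± 0.51 at 1 week (adjusted p = 0.00287) and −2.38 ± 0.51 at 2 weeks (adjusted p = 0.00249, edgeR). Ier3 gave the strongest result of the set: it was at 0.842, 1.62 and 1.58 CPM in fresh cells, at 256, 126 and 283 CPM in HM-Wnt at 1 week and at 338, 318 and 405 CPM at 2 weeks. In MM it was at 113, 181 and 176 CPM at 1 week and at 122, 99.2 and 132 CPM at 2 weeks. Each of the 12 HepOrg libraries exceeded each fresh library, and the log2 rise was between 6.38 ± 0.39 in MM at 2 weeks and 7.97 ± 0.42 in HM-Wnt at 2 weeks, with adjusted p of 1.79e-07 and 4.85e-08 (edgeR).

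Dusp1 was measured at 596, 298 and 200 CPM in fresh cells, at 169, 237 and 64.3 CPM in HM-Wnt at 1 week and at 180, 145 and 91.0 CPM at 2 weeks. In MM it was at 105, 80.4 and 91.0 CPM at 1 week and at 61.4, 74.5 and 28.9 CPM at 2 weeks. It fell in all 4 HepOrg groups, with log2 fold changes of −1.24 ± 0.49 (adjusted p = 0.0491) and −1.41 ± 0.49 (adjusted p = 0.0279) in HM-Wnt and of −2.0 ± 0.50 (adjusted p = 0.00602) and −2.74 ± 0.51 (adjusted p = 0.00099, edgeR) in MM at 1 and 2 weeks. Only at 1 week in HM-Wnt did the groups overlap. The annotated Dusp1 span holds 6 other genes or transcripts, among them Ergic1 on the opposite strand, and the libraries did not keep strand, so reads from those genes cannot be told apart from Dusp1 where they overlap. Jun and Junb likewise overlap an opposite-strand gene (Junos and Prdx2), and Jund, Atf3 and Ier3 an opposite-strand non-coding RNA.

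**Figure D2:**
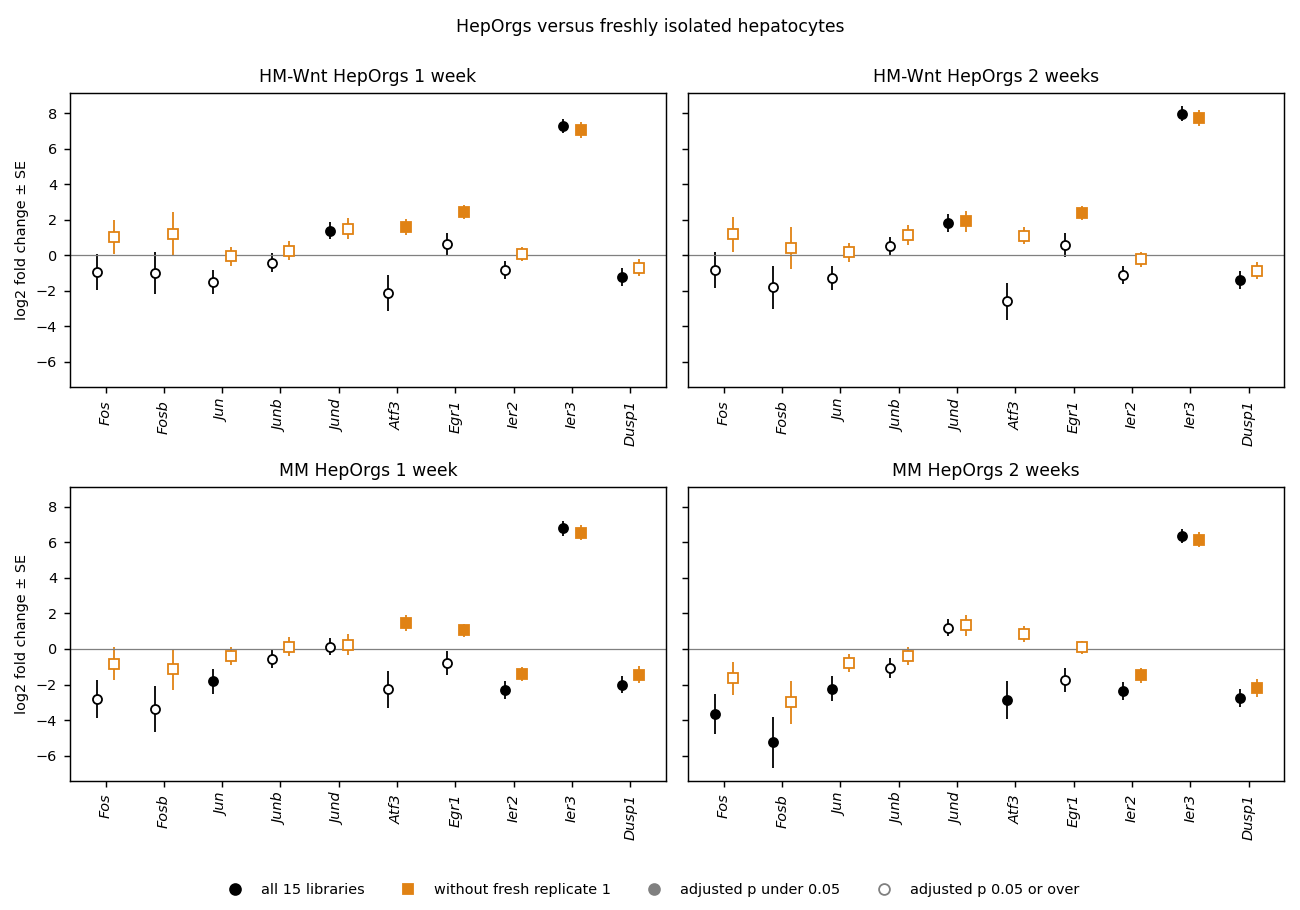
Log2 fold change of the 10 members in each of the 4 HepOrg groups against fresh hepatocytes, with all fresh libraries and without fresh replicate 1; bars are standard errors of the edgeR fit and filled symbols have an adjusted p under 0.05. Ier3 lies above 6 in all 4 panels under both choices, while Atf3 passes from below 0 to above 0 when replicate 1 is left out.

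Several of these calls depended on fresh replicate 1. It exceeded the mean of the other 2 fresh libraries 38.5-fold for Atf3, 12.4-fold for Fosb, 10.1-fold for Fos, 8.79-fold for Egr1 and 6.32-fold for Jun. The excess was smaller for Ier2 (3.57-fold), Junb (2.80-fold), Dusp1 (2.39-fold) and Jund (1.24-fold), and Ier3 was lower, at 0.526 of that mean. In all, 8 of the 10 members and 25 of 36 other immediate early genes were higher in replicate 1 than in both other fresh libraries, compared with 42.6% of 7565 genes with a mean log2 CPM of at least 3. Of 12 heat shock genes, 1 was higher in replicate 1 than in both. The endothelial and immune marker sums of replicate 1 were the lowest of the 3 fresh libraries, at 42.1 and 49.6 CPM.

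Without replicate 1, the calls changed in kind. In HM-Wnt at 1 week, Egr1 rose by 2.43 ± 0.40 (adjusted p = 0.000493, edgeR), Atf3 rose by 1.58 ± 0.47 (adjusted p = 0.0159) and Ier3 by 7.04, and no member fell. These were 3 members among 43.9% of all genes called in either direction. At 2 weeks in HM-Wnt the 3 called members were Egr1 (2.38), Ier3 (7.71) and Jund (1.90), with 46.3% of all genes called. In MM at 1 week, Atf3 (1.46, adjusted p = 0.0272), Egr1 (1.05, adjusted p = 0.0465) and Ier3 (6.55) rose, Ier2 (−1.41) and Dusp1 (−1.45) fell, and 36.1% of all genes were called. In MM at 2 weeks, Ier3 rose by 6.15 while Ier2 fell by 1.49 and Dusp1 fell by 2.19 (adjusted p = 0.0134 and 0.00459, edgeR), with 33.0% of all genes called. The higher Ier3 in all 4 groups and the lower Ier2 and Dusp1 in MM at both times were thus called with and without replicate 1. The falls of Fos, Fosb, Jun and Atf3, the falls of Dusp1 in HM-Wnt and the rise of Jund in HM-Wnt at 1 week were called only with it. That rise of Jund was not smaller without it, at 1.49 ± 0.60 (adjusted p = 0.0606, edgeR). Over all comparisons with fresh cells, 17 member calls were lost with the same sign when replicate 1 was left out. Leaving out fresh replicate 2 lost 3 such calls, and leaving out replicate 3 lost 9.

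The spread between libraries of a condition was large for these genes. In fresh hepatocytes the members' standard deviation on the log2 CPM scale had a median of 1.35, compared with 0.235 over 7565 genes, and all 10 members were above that 0.235. Their median standard deviation in HM-Wnt HepOrgs was 0.809 at 1 week and 0.623 at 2 weeks, where the medians of the genes were 0.296 and 0.170. In MM it was 0.409 at 1 week and 0.537 at 2 weeks, against 0.208 and 0.180. Homeostatic assembloids at 2.5 weeks had a median of 0.417 for the members and 0.168 for the genes. The fibrotic-like assembloids had 0.686 and 0.299 at 1 week, with 8 of the 10 members above the genes' median, and 0.470 and 0.263 at 2.5 weeks, with 6 above it. In homeostatic assembloids at 1 week, which include the library with 8465 genes detected, the medians were 1.39 and 1.29 and 6 members were above. These values are a description over genes that share libraries.

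The comparison of MM with HM-Wnt HepOrgs addresses what changes when the growth factors, nicotinamide and the GSK3 and TGFβ receptor inhibitors of the expansion medium are withdrawn together. Egr1 was lower in MM at both times, and Ier2 and Ier3 were also lower at 2 weeks. All 10 members had a negative log2 fold change at either time, with a median of −1.01 at 1 week and −1.44 at 2 weeks, where the medians over 12989 genes were −0.004 and −0.022. At 1 week 1 member was called lower, where 1.22% of all genes were, and at 2 weeks 3 members were, where 4.61% of all genes were. None of the members was called higher.

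Egr1 was measured at 625, 577 and 407 CPM in HM-Wnt and 182, 183 and 246 CPM in MM at 1 week. At 2 weeks it was at 560, 702 and 291 CPM in HM-Wnt and 97.8, 129 and 86.2 CPM in MM. The groups were apart at both times, with log2 fold changes of −1.40 ± 0.30 at 1 week (2.63-fold lower in MM, adjusted p = 0.0360) and −2.29 ± 0.31 at 2 weeks (4.91-fold lower, adjusted p = 0.0017, edgeR). Ier2 at 2 weeks was at 238, 300 and 122 CPM in HM-Wnt and at 95.6, 106 and 71.8 CPM in MM, 2.38-fold lower without overlap (log2 fold change −1.25 ± 0.37, adjusted p = 0.0483, edgeR). Its difference at 1 week was −1.48 ± 0.37 and just missed the threshold (adjusted p = 0.0536, edgeR), although the groups were apart there too. Ier3 at 2 weeks was 2.98-fold lower in MM, with every library at 132 CPM or less against 318 CPM or more in HM-Wnt (−1.57 ± 0.29, adjusted p = 0.00726, edgeR).

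At 2 weeks 6 members had every MM library below every HM-Wnt library, namely Fosb, Junb, Egr1, Ier2, Ier3 and Dusp1. Of all genes tested, 19.3% had the same arrangement at 2 weeks, and 12.2% had it at 1 week, where 2 members (Egr1 and Ier2) did. Junb was at 576, 675 and 593 CPM in HM-Wnt and at 212, 224 and 188 CPM in MM, which the unblocked fit did not call (−1.55 ± 0.51, adjusted p = 0.0700, edgeR). Fos was at 265, 269 and 29.5 CPM in HM-Wnt and 27.9, 40.8 and 9.57 CPM in MM. Its groups overlapped through HM-Wnt replicate 3, and the difference was −2.83 ± 0.93 (adjusted p = 0.0723, edgeR). Jun, Jund and Atf3 overlapped at both times and were not called.

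HepOrg libraries with the same replicate number deviated together from their group means between groups that shared a medium or a time. Their correlation was over 0.1 in every such pair, and pairs of groups differing in both were not computed. Fos was lowest in replicate 3 of all 4 HepOrg groups. With the replicate number as a block, 4 members were lower in MM at 1 week, where 9.48% of all genes were called in either direction, and 6 at 2 weeks, where 19.6% were. At 1 week these were Fos (−1.48, adjusted p = 0.0366), Jund (−1.23, adjusted p = 0.0429), Egr1 (−1.34, adjusted p = 0.0166) and Ier2 (−1.36, adjusted p = 0.0275, edgeR). At 2 weeks they were Fos (−2.54, adjusted p = 0.00157), Fosb (−2.92, adjusted p = 0.0296), Egr1 (−2.26, adjusted p = 0.000496), Ier2 (−1.21, adjusted p = 0.0211), Ier3 (−1.57, adjusted p = 0.00273) and Dusp1 (−1.37, adjusted p = 0.0117, edgeR). Junb missed the threshold in the block as well (adjusted p = 0.0508, edgeR). The 3 members called without the block at 2 weeks were thus called with it, and Fos, Fosb and Dusp1 were added.

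**Figure D3:**
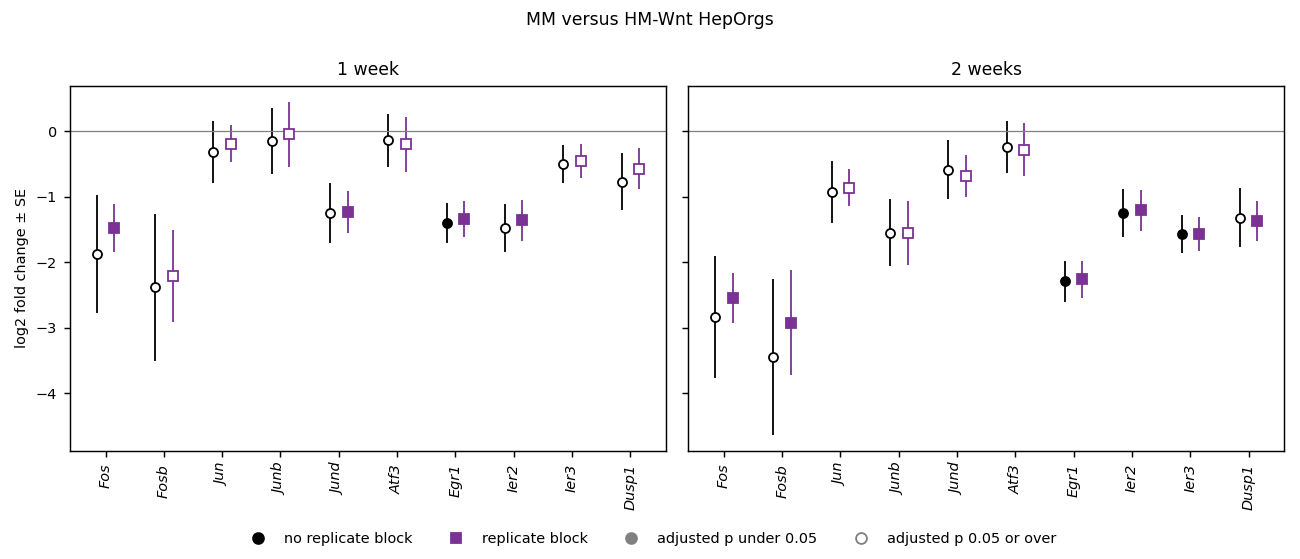
Log2 fold change of the 10 members in MM against HM-Wnt HepOrgs at 1 week and 2 weeks, without and with the replicate number as a block; bars are standard errors of the edgeR fit and filled symbols have an adjusted p under 0.05. All 10 members lie below 0 at both times, and with the block 4 are filled at 1 week and 6 at 2 weeks.

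Time in culture gave no called member. Between 1 and 2 weeks, 0.0% of genes were called in HM-Wnt and 0.0154% in MM by edgeR, with 0 members in either. DESeq2 called 0 members among 0.1% and 2.37% of genes, and limma 0 among 0.0% and 0.0424%. At an unadjusted p under 0.05 there was 1 member in HM-Wnt, Ier3 (log2 fold change 0.69 ± 0.29), and 2 in MM, Egr1 (−0.94 ± 0.30) and Jund (1.09 ± 0.46). With the replicate number as a block, 0 members and 0.0% of genes were called in HM-Wnt, and 0 members and 0.0231% of genes in MM. In that fit the members at an unadjusted p under 0.05 were 1 in HM-Wnt, Ier3 (0.72 ± 0.26, adjusted p = 0.238, edgeR), and 4 in MM. Fos (−0.93 ± 0.36, adjusted p = 0.285), Egr1 (−1.0 ± 0.27, adjusted p = 0.126) and Dusp1 (−0.88 ± 0.31, adjusted p = 0.230) were lower at 2 weeks in 3 of 3 same-number pairs in MM, and Jund (1.02 ± 0.32, adjusted p = 0.181, edgeR) was higher in 3 of 3. In the test of whether the medium effect differed between the times, 0 members were called and 1, Ier3, had an unadjusted p under 0.05 (−1.07, adjusted p = 0.671, edgeR).

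The fibrotic-like and homeostatic assembloids differ in the number of mesenchymal cells added, and their comparison asks what that excess changes. No member was called at either time, and 0.0% of 14255 genes were called at 1 week and 0.0% at 2.5 weeks by edgeR, so these tests do not separate the members from other genes. DESeq2 called 6.08% of genes at 1 week and 1.92% at 2.5 weeks, and limma 6.85% and 0.0%, with 0 members in each. At an unadjusted p under 0.05 edgeR gave Junb at both times. Junb was at 113, 189 and 143 CPM in homeostatic and 254, 257 and 419 CPM in fibrotic-like assembloids at 1 week, and at 120, 131 and 86.6 CPM against 168, 375 and 194 CPM at 2.5 weeks. The groups were apart at both times, with log2 differences of 1.10 ± 0.36 (adjusted p = 0.291) and 1.11 ± 0.36 (adjusted p = 0.726, edgeR). The highest Junb value at 1 week, 419 CPM, came from fibrotic-like replicate 3, a library low in hepatocyte markers. Its mesenchyme markers, given below, were also low for its design.

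At 2.5 weeks 5 members had every fibrotic-like library above every homeostatic library, namely Fos, Junb, Egr1, Ier2 and Dusp1. This arrangement was found in 20.5% of all genes tested at 2.5 weeks, and at 1 week in 17.4%, with 2 members. Fos was at 7.83, 8.40 and 4.74 CPM in homeostatic and 12.4, 53.5 and 19.5 CPM in fibrotic-like assembloids. Egr1 was at 44.4, 54.2 and 35.8 CPM against 60.4, 76.3 and 142 CPM, and Dusp1 at 34.1, 19.4 and 35.8 CPM against 52.6, 61.8 and 59.9 CPM. Ier2 lay just apart, at 73.3, 67.5 and 36.3 CPM against 83.7, 74.3 and 77.4 CPM. None of these passed the adjusted threshold. The 9 mesenchyme markers summed to 170.5 to 248.1 CPM in these homeostatic libraries and to 1322 to 5001 CPM in the fibrotic-like ones. At 1 week these sums overlapped, at 122.7, 1041 and 297.4 CPM in homeostatic and 2304, 6065 and 284.4 CPM in fibrotic-like assembloids. Fibrotic-like replicate 3, at 284.4 CPM, thus lay within the homeostatic range at 1 week. The part of mesenchymal RNA in the members' levels was not tested.

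At 1 week the libraries low in hepatocyte markers set part of the members' range. Homeostatic replicate 2 had Fos at 85.5 CPM against 6.43 and 3.14 CPM in the other 2 libraries, Ier3 at 687 CPM against 80.8 and 127 CPM and Dusp1 at 204 CPM against 38.3 and 43.1 CPM. Egr1 was low in it, at 2.48 CPM against 45.6 and 31.7 CPM, and Atf3 was counted 0 times. Fibrotic-like replicate 3 had Dusp1 at 222 CPM against 64.1 and 28.1 CPM, and Egr1 at 19.8 CPM against 73.9 and 82.5 CPM. With both libraries left out, a choice made after their values were seen, 0 members were called at either time while 1.87% of genes were called at 1 week and 3.19% at 2.5 weeks. Junb then differed by 0.98 ± 0.37 (adjusted p = 0.124) and 1.11 ± 0.31 (adjusted p = 0.0810, edgeR). The members whose difference changed sign at 1 week were Fos, Jund and Ier3, passing from −0.38, −0.95 and −0.94 to 2.20, 0.45 and 0.63, all uncalled.

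**Figure D4:**
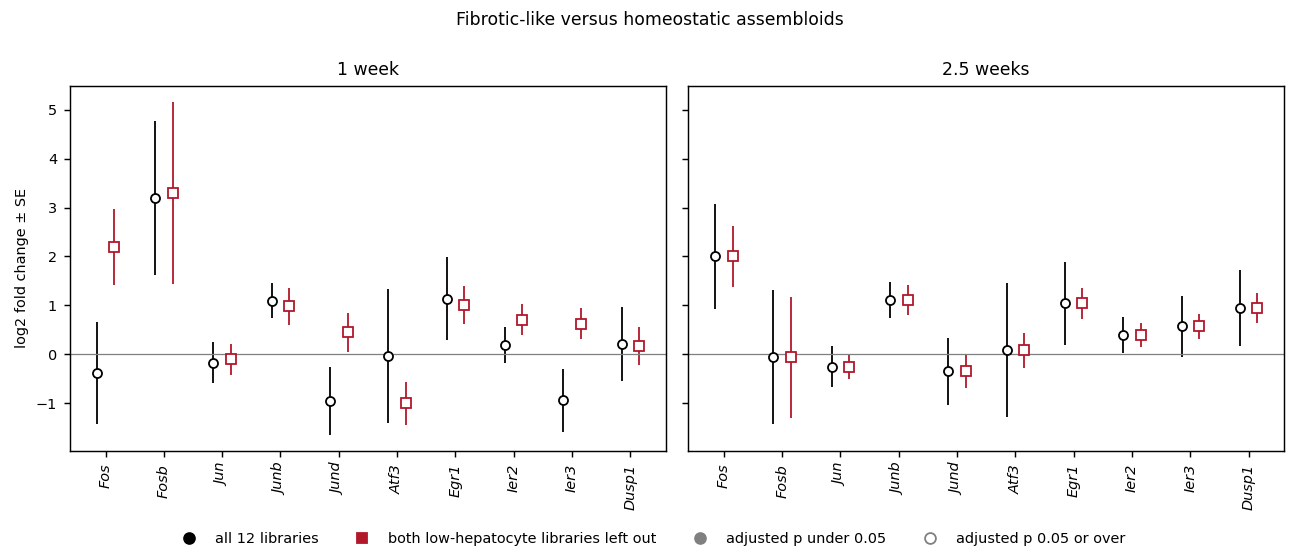
Log2 fold change of the 10 members in fibrotic-like against homeostatic assembloids at 1 week and 2.5 weeks, with all 12 assembloid libraries and with both libraries low in hepatocyte markers left out; bars are standard errors of the edgeR fit. All symbols are open, so no member had an adjusted p under 0.05, and Junb lies near 1 in both panels under both choices.

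Neither assembloid design gave a called member between 1 and 2.5 weeks, with 0.0% of genes called in the homeostatic and 0.0% in the fibrotic-like design by edgeR and 0 members at an unadjusted p under 0.05. DESeq2 called 0.0842% of genes in the homeostatic and 0.0% in the fibrotic-like design, and limma 0.0% in both, with 0 members. Whether the difference between designs changed with time was also not called for any member by the 3 tools.

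Assembloids were also set against MM HepOrgs with the same labelled time of 1 week, which share their medium. The cell mixtures differ, and assembloids went through an aggregation step before seeding in gel. These differences cannot be told apart here. Assembloids had 0 called members in both designs, with 0.0% of 13735 genes called for the homeostatic and 0.0% for the fibrotic-like design by edgeR. In the homeostatic comparison 3 members, Fosb, Junb and Egr1, had an unadjusted p under 0.05, and DESeq2 called 1 member among 1.91% of genes and limma 0 among 0.0%. In the fibrotic-like comparison 1 member, Jun, had an unadjusted p under 0.05, and DESeq2 called 0 members among 5.33% of genes and limma 0 among 1.9%. Both comparisons share the MM libraries. With both libraries low in hepatocyte markers left out, Egr1 was lower in fibrotic-like assembloids (log2 fold change −1.41 ± 0.24, adjusted p = 0.0141), as was Atf3 (−1.87 ± 0.51, adjusted p = 0.0414, edgeR). These were 2 members at 22.2% of all genes called. Without homeostatic replicate 2 alone, Egr1 was called (−1.80, adjusted p = 0.0390, edgeR), with 22.9% of 14310 genes called.

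Against fresh hepatocytes, every assembloid group had lower Jun and Ier2 and higher Ier3. Higher calls made up 8.12% of 14491 genes in homeostatic assembloids at 1 week and lower calls 3.84%, and at 2.5 weeks 2.92% and 1.78%. In fibrotic-like assembloids the shares were 11.4% and 7.42% at 1 week and 8.14% and 3.9% at 2.5 weeks. The members called lower numbered 5 and 5 in the homeostatic design at 1 and 2.5 weeks, and 2 and 3 in the fibrotic-like design, with Ier3 the 1 member called higher in each of the 4 groups. Ier3 was at 80.8 CPM or more in all 12 assembloid libraries, against 1.62 CPM or less in fresh cells. Its log2 rise was between 6.36 and 7.65, with adjusted p between 0.00027 and 0.000811 (edgeR). Ier2 had log2 fold changes of −2.63 and −3.0 in homeostatic assembloids at 1 and 2.5 weeks, and of −2.44 and −2.60 in fibrotic-like assembloids, with adjusted p between 0.00795 and 0.00948 (edgeR). Jun had −2.95 and −2.71 in the homeostatic and −3.12 and −2.95 in the fibrotic-like design, with adjusted p between 0.0109 and 0.0445 (edgeR). In the homeostatic design Junb fell at both times, by 1.60 (adjusted p = 0.0392) and 1.95 (adjusted p = 0.0332, edgeR), and in the fibrotic-like design it was not called. Dusp1 fell at 2.5 weeks in both designs, by 3.62 (adjusted p = 0.0282) and 2.66 (adjusted p = 0.0447, edgeR).

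By edgeR, Egr1 and Fosb were called lower than in fresh cells in homeostatic assembloids at 1 week, and Fos in those at 2.5 weeks. With homeostatic replicate 2 at 1 week left out, edgeR also called Fos (−6.11, adjusted p = 0.006) and Dusp1 (−3.17, adjusted p = 0.013) lower in homeostatic assembloids at 1 week. Fos was then called in fibrotic-like assembloids at 1 week (−3.87, adjusted p = 0.00518) and 2.5 weeks (−3.55, adjusted p = 0.0104, edgeR). The rise of Ier3 in homeostatic assembloids at 1 week was then 6.23. The share of all genes called was 22.4% in that group, and 51.4% and 40.9% in the fibrotic-like groups. DESeq2 called Fos and Fosb lower in all 4 assembloid groups, and Egr1 in homeostatic assembloids at both times and in fibrotic-like ones at 1 week. Whether these members differed between the assembloid groups in this respect was not tested. Fosb was counted 4, 0 and 0 times in homeostatic assembloids at 1 week, and its fitted fold change is not given because it depends on the prior count. Without fresh replicate 1, Ier2 was still lower and Ier3 higher in each of the 4 groups. Jun was then called lower in fibrotic-like assembloids at 1 week (−1.67, adjusted p = 0.0468, edgeR) and in none of the other 3 groups, and the calls of Fos, Fosb, Junb, Egr1 and Dusp1 were lost in all 4. This left 2 members lower in fibrotic-like assembloids at 1 week and 1 in each other group. The share of all genes called in either direction without that library was 4.12% and 1.66% in the homeostatic design at 1 and 2.5 weeks, and 8.2% and 4.27% in the fibrotic-like design.

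Other immediate early and MAP kinase genes were followed with lists chosen by function, whose counts are to be read beside the 24.9% of all genes higher and 24.8% lower in HM-Wnt HepOrgs at 1 week than in fresh cells. Of 9 tested AP-1 genes other than the members, 3 were higher and 1 lower in HM-Wnt HepOrgs at 1 week than in fresh cells. Fosl2, another Fos family partner of Jun, rose by 3.11 ± 0.44 (adjusted p = 8.94e-05, edgeR), and Mafg, a small Maf protein, fell by 1.16 ± 0.22. Of 33 other immediate early genes, 9 were higher and 4 lower. The higher count is near the share of all genes, and the lower count is below it. These list counts used all fresh libraries and are not given without fresh replicate 1, in which 25 of 36 other immediate early genes exceeded both other fresh libraries. The largest rises named were in the zinc finger factors Klf4 (5.29 ± 0.51) and Klf6 (2.68 ± 0.28) and in Ier5 (3.65 ± 0.60). Of 12 genes of MAP kinase feedback, 7 were higher and 0 lower, with a median log2 fold change of 1.24. Among them Dusp5 (3.22 ± 0.60) acts on nuclear ERK, Dusp10 (1.58 ± 0.18) on JNK and p38, and Spred1 (1.62 ± 0.28) on the Ras to Raf step. Dusp1 fell in the same comparison with overlapping groups, and was not called without fresh replicate 1 (−0.70 ± 0.48, adjusted p = 0.259, edgeR).

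Of 12 heat shock genes, 1 was higher and 6 were lower in HM-Wnt HepOrgs at 1 week than in fresh cells, with a median of −0.45. Hspa1a, the stress-inducible HSP70, fell by 1.54 ± 0.57 (adjusted p = 0.0377, edgeR) and the mitochondrial chaperonin Hspd1 by 1.36 ± 0.14, while the constitutive Hspa8 rose by 1.42 ± 0.27. Of 15 kinases and factors upstream of the immediate early genes, 2 were higher and 1 lower: Mapk3, which encodes ERK1, rose by 1.30 ± 0.22, the serum response factor coactivator Mrtfa by 0.90 ± 0.26, and Mapk14, which encodes p38α, fell by 0.63 ± 0.22.

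Between media at 2 weeks, where 6.84% of all genes were higher and 4.61% lower in MM, the AP-1 list had 0 higher and 1 lower in MM, Fosl2 (−0.91 ± 0.25, adjusted p = 0.0410, edgeR). The other immediate early genes had 1 higher and 2 lower, Ccn1 (−1.25 ± 0.30) and Phlda1 (−1.11 ± 0.16). The feedback genes had 0 higher and 3 lower, among them Dusp5 (−2.07 ± 0.58) and the cytoplasmic ERK phosphatase Dusp6 (−0.82 ± 0.22). The heat shock genes had 3 higher and 1 lower, with Hspe1 (0.57 ± 0.15), Hspd1 (0.55 ± 0.14) and Bag3 (0.45 ± 0.13) higher, and of the upstream kinases and factors 0 were called. Between assembloid designs at 2.5 weeks, 0 genes of each of these 5 lists were called by edgeR.

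Across the 9 group means, 9 of the 10 members had a positive Pearson correlation with the mean of the other members, from 0.61 for Jund to 0.94 for Egr1, and Ier3 had −0.37. Among 7485 other genes the patterns most like the members' mean were those of Lrpap1 (r = 0.967), Golga7 (0.949), Rlf (0.947), Slc38a2 (0.941) and Pde4b (0.937). Pde4b, a cAMP-degrading phosphodiesterase, ran from 49.5 CPM in HM-Wnt HepOrgs at 1 week to 5.52 CPM in homeostatic assembloids at 1 week. These correlations are over group means that share one normalisation and include the libraries that stood apart, and they are given as a description.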

How the data were processed

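Total RNA of 27 libraries was sequenced after SMART-Seq2 amplification, which does not keep strand. The authors aligned reads with STAR to GRCm39 and deposited raw counts per gene, TPM values and a gene length column, per the labels and file headers. For 17543 of 21705 matched genes (80.8%) the deposited length was within 5% of the whole gene span, so counts may include intronic reads and TPM was divided by the span. Counts of 10 further libraries in the table, which match no sample used here, were left out. Libraries were grouped by their labels.

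The deposited counts were tested with edgeR 4.0.16 (R 4.3.3; filterByExpr at min.count 10 and min.total.count 15, TMM scaling, quasi-likelihood F-test, Benjamini-Hochberg adjustment over all genes tested, threshold 0.05). The SE of a log2 fold change was its size divided by the square root of F. There were 5 fits with 18 comparisons and 2 interactions. Fitted fold changes used a prior count of 2. Alternatives were DESeq2 1.42.0, limma 3.58.1 on log2(TPM + 1) of the deposited TPM values, other size factors, filters, sample sets, a replicate block and each library left out. Scripts were checked on simulated counts.

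Replicate numbers were taken to pair libraries where every same-number correlation of deviations computed for a comparison exceeded 0.1. This held for the 4 comparisons between HepOrg groups only, and HepOrg groups differing in both medium and time were not compared. All 10 members were named, with up to 3 genes per companion list of the largest change past the threshold at a mean log2 CPM of at least 3 in 3 comparisons, and the 5 genes with the closest pattern. The members and the lists were chosen with earlier results of these data known. Promoters were read from the GRCm39 genome upstream of the first base of each gene's Ensembl canonical transcript (GENCODE), which for some genes lies inside the gene span.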

Additional observations from a re-analysis of the deposited data

Results flagged for a closer look

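Every HM-Wnt library had more Junb at 2 weeks than at 1 week, and every MM library had less. The values went from 458, 72.9 and 463 CPM to 576, 675 and 593 CPM in HM-Wnt HepOrgs (log2 fold change 0.90 ± 0.50, n = 3 and 3), and from 261, 233 and 404 CPM to 212, 224 and 188 CPM in MM HepOrgs (−0.50 ± 0.50). Neither difference was called, and the test of the difference between them gave −1.40 on the log2 scale with an adjusted p of 0.673 (edgeR). HM-Wnt replicate 2 at 1 week, at 72.9 CPM, was the lowest Junb value of the 12 HepOrg libraries.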

How the results depend on the processing

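Of 149 recomputed counts of called members over 20 comparisons and interactions, leaving out the fits without 1 library, 128 were within 1.5 times of the count given and 21 were not. Fitting only the 2 groups compared gave 1 member for HM-Wnt HepOrgs at 1 week against fresh cells, 0 and 5 for MM against HM-Wnt at 1 and 2 weeks, 1 for fibrotic-like assembloids against MM HepOrgs, and 0 and 5 for homeostatic and fibrotic-like assembloids at 1 week against fresh cells. limma on log2(TPM + 1) gave 4 for MM HepOrgs at 2 weeks, 2 and 3 for homeostatic assembloids at 1 and 2.5 weeks and 2 for fibrotic-like assembloids at 2.5 weeks, all against fresh cells. DESeq2 gave 2 and 7 for MM against HM-Wnt at 1 and 2 weeks, 1 for homeostatic assembloids against MM HepOrgs and 7 for fibrotic-like assembloids at 1 week against fresh cells. A minimum of 10 counts in every library gave 2 for MM against HM-Wnt at 1 week. The replicate block gave 4 and 6 for MM against HM-Wnt at 1 and 2 weeks and 2 for homeostatic assembloids at 2.5 weeks against fresh cells. The numbers did not pair libraries outside the HepOrg fit. With both libraries low in hepatocyte markers left out, an alternative chosen after seeing the data, there were 2 for fibrotic-like assembloids against MM HepOrgs, and 6 and 7 for fibrotic-like assembloids at 1 and 2.5 weeks against fresh cells. The share of all genes called moved as well: over these comparisons it was 0.0% to 49.7% in the fits given, and over those named for each alternative 0.0% to 47.5% with only the 2 groups compared, 5.83% to 48.8% with limma, 1.91% to 30.5% with DESeq2, 4.03% with the minimum in every library, 3.22% to 19.6% with the block and 22.2% to 47.4% without both libraries low in hepatocyte markers. For MM against HM-Wnt at 1 and 2 weeks, where the share was 2.98% and 11.5%, it was 10.9% and 19.2% with DESeq2, 9.48% and 19.6% with the block and 0.238% and 14.8% with only those 2 groups. For fibrotic-like assembloids at 1 week against fresh cells it went from 18.8% to 30.5% with DESeq2 and to 47.4% without both libraries. The cause of these shifts was not tested.

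Leaving out each library in turn gave 1 to 4 and 2 to 6 called members for HM-Wnt HepOrgs at 1 and 2 weeks against fresh cells, 3 to 7 and 3 to 9 for MM HepOrgs, and 0 to 2 and 2 to 5 for MM against HM-Wnt. It gave 2 to 8 and 2 to 9 for homeostatic and 3 to 8 and 2 to 7 for fibrotic-like assembloids against fresh cells, 0 to 1 for fibrotic-like assembloids against MM HepOrgs, and 0 for every other comparison and both interactions. Without fresh replicate 1, Atf3 turned from lower to higher against fresh cells, so that its log2 fold change over these fits ran from −2.69 to 1.58 and from −3.16 to 1.10 in HM-Wnt and from −2.85 to 1.46 and from −3.41 to 0.86 in MM at 1 and 2 weeks. Egr1 turned too in MM, over −1.28 to 1.05 and −2.22 to 0.09. limma on TPM also turned Egr1 in MM at 1 week, to 0.64, on a scale where the median of all genes shifted by −0.40 to 1.02 from that of the counts. Depth did not limit members other than Fosb, which had 20 counts or fewer in MM HepOrgs at 2 weeks, in both assembloid designs at 2.5 weeks and in homeostatic assembloids at 1 week.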
